A study of Mus musculus with 27 samples.

Results

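The iron and heme handling genes are 10 genes chosen by name: *Hamp*, *Bmp6* and *Id1* (the hepcidin axis), *Tfrc* and *Trf* (iron uptake), *Fth1* and *Ftl1* (iron storage), *Slc40a1* (iron export), and *Alas1* and *Hmox1* (heme synthesis and breakdown). All 10 were found among the 36333 genes measured by RNA-seq. Each was followed in liver, omental adipose tissue and skeletal muscle of *Mlx*KO mice, in 27 samples: every tissue has 4 from mice aged 5 months and 5 from mice aged 20 months. Ages follow the sample titles; the names of the older samples begin with X18, and the study's list of mice gives them the age in those names rather than that in the titles, a conflict that could not be settled. The mice were *Mlx* Flox/Flox on a B6.129 background and carried the allele Gt(ROSA)26Sortm1(cre/ERT2), in which the ubiquitously active ROSA26 locus drives a tamoxifen-dependent Cre. Every mouse, at both ages, had been given tamoxifen (75 mg/Kg, injected i.p. on 5 consecutive days in corn oil) around weaning, once it weighed at least 15 g, so the comparisons below are between ages and tissues within 1 genotype. The mice were male according to the study's methods. WT mice were not analysed here, so no value below separates the loss of *Mlx* from age. Names at 5 months end in a number shared by the tissues, such as X5L4299 of liver, X5F4299 of adipose tissue and X5S4299 of muscle. The study's list of mice gives it as that of a mouse, so the 3 tissues at 5 months came from the same 4 mice. At 20 months the list has other numbers for each tissue, and whether these tissues share mice cannot be told from it.

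Mammals lose iron by no regulated route, so its level is set by hepcidin, a small hormone made by hepatocytes. Hepcidin binds ferroportin, the only known iron exporter of mammalian cells, and has it degraded. Its gene is switched on by BMP6, which endothelial cells of the liver secrete when iron is plentiful, and by IL-6 during inflammation. Inside cells, iron regulatory proteins bind a hairpin called the iron responsive element: bound near the start of ferritin and ferroportin mRNAs they block translation, and bound near the end of the transferrin receptor mRNA they keep it from decay. Heme is made in mitochondria from a first step catalysed by ALAS1 in most tissues, and its iron is freed by HMOX1.

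Values are reads per gene scaled by the authors to a depth and a factor for each sample, here called normalised values. Samples held 14384695 to 25673919 reads on genes. A member tested for age within a tissue was never counted with fewer than 121 reads in a sample. *Hamp*, also compared between tissues, had 0 reads in some adipose samples and muscles. Ages were compared within a tissue by limma on log2(normalised value + 1), a scale that understates changes of low genes, over genes that reached a value of 1 in 4 or more samples. Genes with an adjusted p under 0.05 (Benjamini-Hochberg over all genes tested) are called, and errors are SE for log2 changes and SD for means. A value in parentheses beside an adjusted p is the log2 change from 5 to 20 months. Lists of values follow the sample names, which end at 5 months as in X5L4299, X5L5001, X5L5238 and X5L5239 and at 20 months in 16, 17, 18, 19 and 74 (liver), 36 to 40 (adipose tissue) and 56 to 60 (muscle). *Mlx* itself was read at 18.8 to 32.4 in livers, 8.19 to 13.9 in adipose samples and 7.04 to 11.6 in muscles. No WT sample was analysed beside it to check the deletion in these reads. The study's list of mice gives *Mlx* expression by qRT-PCR as a share of WT. At both ages this share was lowest in liver, higher in adipose tissue and highest in muscle, so the loss of *Mlx* was not equal between the tissues. The reads of *Mlx* did not run in that order, being highest in liver. Markers fitted the tissue labels: summed values of 7 hepatocyte markers were 51859.6 or more in each liver, those of 6 adipocyte markers 6057 or more in each adipose sample, and those of 7 muscle fibre markers 130735 or more in each muscle.

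With age, 2 of 10 members were called in liver, 1 of 9 tested in adipose tissue and 3 of 9 tested in skeletal muscle. Of all genes tested, 19.8% were called in liver, 19.1% in adipose tissue and 19.3% in muscle, against 20%, 11.1% and 33.3% of the members tested. Both calls in liver were lower at 20 months (*Hamp* and *Bmp6*), as were the 3 in muscle (*Hmox1*, *Bmp6* and *Ftl1*), while *Tfrc* in adipose tissue was higher. Genes called lower made up 9.79% of those tested in liver and 10.1% in muscle, and genes called higher made up 9.75% in adipose tissue. In the opposite directions these shares were 10% in liver, 9.13% in muscle and 9.35% in adipose tissue, with 0 members called in any of them. The ages did not overlap for 3 members in liver (19.1% of all genes), 2 in adipose tissue (17.4%) and 3 in muscle (17.3%). The median log2 change of the members was 0.06 in liver, 0.22 in adipose tissue and -0.19 in muscle, against 0.00, 0.01 and 0.02 over all genes tested. On all lists of other iron and heme genes together, 21 of 100 tested were called in liver (21%). In adipose tissue 19 of 93 were called (20.4%) and in muscle 29 of 88 (33%). In liver and adipose tissue these shares were near those of all genes. Counts for single lists below are to be set beside the shares of all genes.

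**Figure D1:**
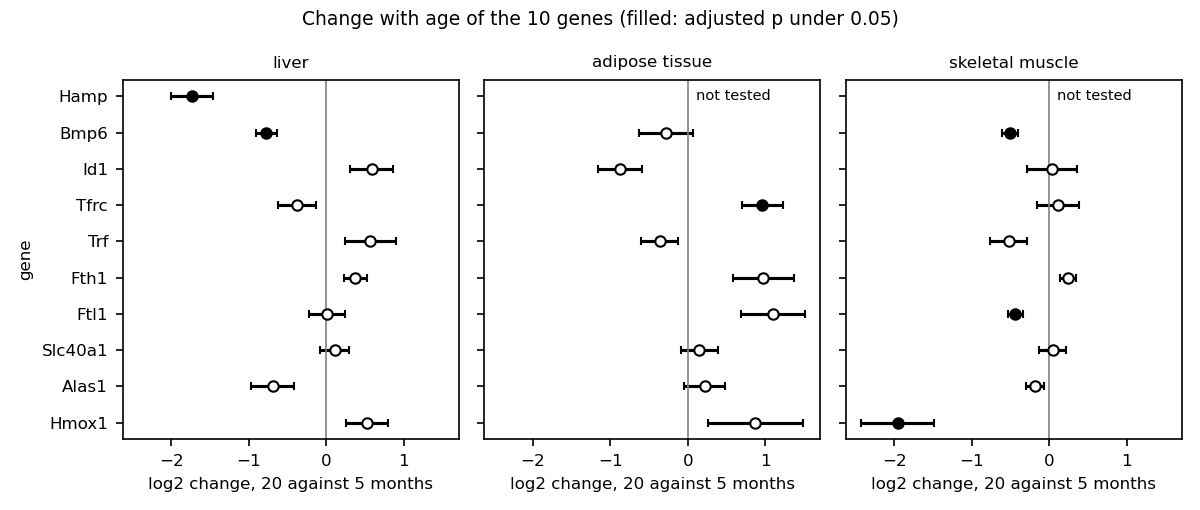
Log2 change of each member between 5 and 20 months (x axis, 20 against 5 months) in each tissue, with its SE; filled points have an adjusted p under 0.05. Filled points are *Hamp* (-1.73) and *Bmp6* (-0.77) in liver, *Tfrc* (0.96) in adipose tissue, and *Bmp6* (-0.50), *Ftl1* (-0.44) and *Hmox1* (-1.96) in muscle, and *Hamp* was not tested in the last 2 tissues.

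*Hamp* (gene ID 84506, chromosome 7, 30942368 to 30944029, minus strand in GRCm38.p6), which encodes hepcidin, was the member with the largest fall in liver. The 4 livers at 5 months read 1979.7, 1779.8, 1471 and 1171, and the 5 livers at 20 months read 558, 265, 398, 749 and 536. All 5 older livers lay below all 4 younger ones. The mean fell from 1601 ± 354 (n = 4) to 501 ± 182 (n = 5), which is 31.3% of the level at 5 months, a log2 change of -1.73 ± 0.28 with a limma adjusted p of 0.00775. The exact two-sided permutation test over all splits of the 9 livers gave p = 0.00794, the smallest they can give. Of 7 hepatocyte markers, 2 were called lower in the same livers, *Tat* (-1.87, adjusted p = 0.0112) and *Cps1* (-2.14, adjusted p = 0.00605), and 0 higher. *Alb* (-0.86, adjusted p = 0.331), *Apoa1* (-0.05, adjusted p = 0.908) and *Ttr* (-0.03, adjusted p = 0.946) did not pass the test. The summed value of the 7, most of it *Alb*, was 123449 to 183799.6 at 5 months and 51859.6 to 110917 at 20 months, and its part in the fall of *Hamp* was not tested. In whole liver, fewer hepatocytes and less *Hamp* mRNA per hepatocyte cannot be told apart. With only X5L5238 and X5L5239 left at 5 months, the log2 change was -1.47 with an adjusted p of 0.0798.

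The promoter of *Hamp* is shown because both known inputs to hepcidin act through it. RefSeq places the 100 bases from 150 to 51 before the gene's start at chr7:30944080-30944179 of GRCm38.p6, minus strand, and capitals mark a BMP responsive element (GGCGCC, 109 to 104 bases before the start) and a STAT site (TTCNNNGAA, 97 to 89 bases before the start).
*Hamp* promoter: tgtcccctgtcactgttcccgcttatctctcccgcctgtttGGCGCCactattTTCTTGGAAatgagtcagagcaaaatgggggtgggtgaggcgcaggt
A search of both strands found GGCGCC in 11.9% and TTCNNNGAA in 8.3% of 32851 RefSeq promoter windows of 300 bases. Windows were matched for 6 of the 10 members. Among them GGCGCC was also found in a *Tfrc* window and TTCNNNGAA in an *Alas1* window. The E box CACGTG, a sequence bound by Myc and *Mlx* family factors, was found in the *Bmp6* window and in 7.15% of all windows. The *Bmp6* window also held the antioxidant responsive element TGACNNNGC, found in 12.4% of windows, and no member's window held the ChoRE, found in 0.0274%. These are matches of letters and carry no measurement of binding.

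Outside liver *Hamp* was close to 0 and was not tested for age. Adipose samples read 0.255, 0.0369, 1.03 and 0.349 at 5 months, and the 5 at 20 months read 0.83 and 0.83 in samples 36 and 38 and 0 in the other 3. Muscles read 0.0768, 1.05, 9.24 and 0.418 at 5 months, and at 20 months 1 of the 5 (sample 58) read 1.085 and the others 0. The 2 muscles with the highest *Hamp* of their age, X5S5238 and 58, also had the highest summed hepatocyte markers: 413 against 66.5 to 88.6 in the other muscles at 5 months, and 76.7 against 1.85 to 9.48 at 20 months. A count of 0 limits a gene only to below what 3 reads can show, and 16.6% of the 50-base words of *Hamp* transcripts are shared with its near copy *Hamp2*.

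**Figure D2:**
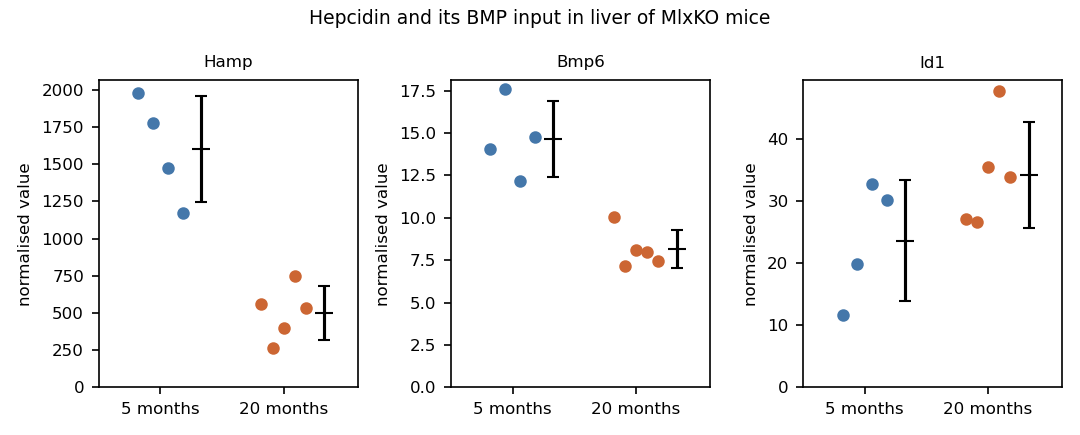
Normalised values (y axes, from 0) of *Hamp*, *Bmp6* and *Id1* in each liver at 5 and 20 months, with the mean and SD beside the points. The 5 older livers sit at 265 to 749 for *Hamp* and 7.16 to 10.02 for *Bmp6*, all below the 4 younger ones, while the ages overlap for *Id1*.

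*Bmp6* (gene ID 12161, chromosome 13, 38345716 to 38500314, plus strand), the BMP ligand that reports iron load to hepatocytes, was the other member called in liver. Livers read 14.1, 17.6, 12.2 and 14.8 at 5 months and 10.02, 7.16, 8.11, 8.01 and 7.47 at 20 months. No older liver reached the lowest younger one. The mean fell from 14.7 ± 2.25 to 8.16 ± 1.11, a log2 change of -0.77 ± 0.14 (limma adjusted p = 0.00883; 141 to 242 reads per sample). With X5L5238 and X5L5239 alone at 5 months the change was -0.66 with an adjusted p of 0.0817. Endothelial cells are the known source of *Bmp6* in liver, and the summed value of 9 endothelial markers was 285 to 554 at 5 months and 232 to 331 at 20 months, with 2 of the 9 called lower (*Oit3* and *Kdr*). Their part in the fall of *Bmp6* was not tested.

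*Bmp6* also fell with age in muscle. Muscles read 47.1, 35.7, 45.3 and 38.8 at 5 months and 29.5, 29.5, 26.6, 29.9 and 29.4 at 20 months. Every older muscle lay below every younger one, and the older ones were within 26.6 to 29.9. The log2 change was -0.50 ± 0.10 (limma adjusted p = 0.00886). In the fit over all 27 samples, where the 3 tissues share 1 estimate of the spread, its adjusted p was 0.156. Of 7 endothelial markers tested in muscle, 4 were called lower and 1 higher, and their summed value was 406 to 496 at 5 months against 314 to 417 at 20 months. In adipose tissue the 4 younger samples ranged over 15.2 to 41.00 and the 5 older ones over 12.02 to 35.2, with a log2 change of -0.28 ± 0.34 and an adjusted p of 0.556. The gene overlaps *Txndc5* and *4930579J19Rik* in the annotation.

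*Id1* (gene ID 15901, chromosome 2, 152736251 to 152737410, plus strand), a repressor of transcription induced directly by BMP signalling, did not pass the test in any tissue. Livers read 11.6, 19.9, 32.8 and 30.1 at 5 months and 27.1, 26.7, 35.5, 47.7 and 33.9 at 20 months. All 5 older livers were above the younger mean while *Hamp* was below its own in all 5, and the ages overlapped. The log2 change of *Id1* was 0.58 ± 0.27 (adjusted p = 0.146). In adipose tissue the younger samples read 52.4, 44.6, 75.8 and 49.7 and the older ones 45.7, 19.7, 18.6, 29.9 and 41.5. Of the older samples 4 were below the lowest younger one, and the change of -0.88 ± 0.28 had an adjusted p of 0.0552. In muscle, X5S4299 and X5S5001 read 22.5 and 27.3 at 5 months against 10.3 and 9.198 in X5S5238 and X5S5239, and the older muscles ranged over 11.6 to 28.4 (log2 change 0.04 ± 0.32, adjusted p = 0.948).

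Other genes that control hepcidin were taken from a list of 25, of which 23 were in the table and 22 were tested in liver. Of these, 1 was called higher and 4 lower, a share of 22.7% against 19.8% of all genes tested in liver. The median log2 change was -0.10 against 0.00 over all genes. The 4 called lower were the BMP coreceptor *Neo1* (-0.69, adjusted p = 0.0154), the type II receptors *Bmpr2* (-0.46, adjusted p = 0.0472) and *Acvr2a* (-0.38, adjusted p = 0.0451), and the shared mediator *Smad4* (-0.43, adjusted p = 0.0322). The secreted protein *Fstl1* (0.74, adjusted p = 0.0405) was called higher. *Neo1* kept its call in each of the 9 fits without 1 sample, while *Bmpr2*, *Acvr2a*, *Smad4* and *Fstl1* were not recomputed in such fits. The direct readouts of BMP signalling were not called: the log2 change was 0.39 for *Smad6*, -0.54 for *Smad7*, -0.10 for *Id2*, 0.23 for *Id3* and -0.23 for *Atoh8*, with adjusted p from 0.0686 to 0.609. Among the hepatocyte's iron sensors and their partners, *Hfe* (-0.06), *Tfr2* (-0.07), the hemojuvelin gene *Hfe2* (0.18) and the protease *Tmprss6* (0.18), which cleaves hemojuvelin, had adjusted p of 0.248 to 0.851. The related ligand *Bmp2* was at -0.54 ± 0.20 without passing the test (adjusted p = 0.0771). *Hamp2* read 7.52 ± 2.82 at 5 months and 8.07 ± 7.43 at 20 months (adjusted p = 0.726).

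Inflammation is the other known input to *Hamp*, and 4 of the 11 genes tested from the IL-6 and acute phase list were called higher in liver and 1 lower, with a median log2 change of 0.86. The acute phase protein gene *Orm2* (3.20, adjusted p = 0.0198) rose from 15.8 ± 7.36 to 209 ± 139. The serum amyloid genes *Saa2* (2.42, adjusted p = 0.019) and *Saa3* (2.77, adjusted p = 0.0401) and the cytokine gene *Il1b* (0.86, adjusted p = 0.0392) rose as well. *Saa1* read 12.4 to 185 at 5 months and 56.2 to 599 at 20 months and was not called (2.18, adjusted p = 0.073). The IL-6 receptor subunit *Il6st* (-0.49, adjusted p = 0.0209) was lower. Beside these, the summed value of 13 macrophage markers was 292 to 493 in livers at 5 months and 344 to 1027 at 20 months, with 3 of 13 called higher, and their part was not tested. The calls of *Saa2*, *Saa3*, *Orm2* and *Il6st* were each lost when 1 to 5 single samples were left out in turn, with adjusted p of at most 0.105. All 4 losses included a fit without sample 18 of the older livers.

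In muscle 5 of the 6 tested genes of the IL-6 and acute phase list were called lower and 0 higher, with a median log2 change of -1.30. The receptor *Il6ra* (-2.17, adjusted p = 0.00389) fell from 70.9 ± 38.7 to 13.9 ± 5.42. The others were *Socs3* (-1.97, adjusted p = 0.0286), a feedback inhibitor of the pathway, *Lcn2* (-1.85, adjusted p = 0.0492), which binds bacterial iron carriers, *Il6st* (-0.36, adjusted p = 0.0361) and *Stat3* (-0.76, adjusted p = 0.0252). Leaving out a single sample removed the call of *Socs3* in 4 of 9 fits and that of *Lcn2* in 7 of 9 fits, with adjusted p up to 0.118. With X5S5238 and X5S5239 alone at 5 months, *Socs3* was at -0.74 (adjusted p = 0.0616) and *Lcn2* at -0.88 (adjusted p = 0.359), while *Il6ra* stayed called at -1.44 (adjusted p = 0.0091). Of 6 tested macrophage markers 4 were called lower in the same muscles, and their part was not tested. In adipose tissue 1 of 8 was called, again *Stat3* (-0.96, adjusted p = 0.0138). Of the BMP-SMAD list, muscle had 3 genes called higher and 2 lower of 19, including *Hfe2* (0.46, adjusted p = 0.0194), *Smad6* (0.75, adjusted p = 0.0101) and *Bmpr1a* (0.77, adjusted p = 0.0012), of which *Hfe2* lost its call without sample 60. The erythroferrone gene *Fam132b*, a secreted inhibitor of hepcidin, was lower at -1.15 (adjusted p = 0.0264). Adipose tissue had *Tfr2* (3.08, adjusted p = 0.00638) higher, read at 0.185 to 0.786 at 5 months and 4.598 to 21.2 at 20 months, and *Smad4* lower among 19. Below the filter, and so not tested, were *Hamp2*, *Saa1* and *Tmprss6* in adipose tissue and muscle, *Hfe2* in adipose tissue and *Tfr2* in muscle.

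For uptake, storage and export, 4 of the members are known to be tuned by iron through the iron responsive element, and their hairpins are shown. The mRNAs of *Fth1*, *Ftl1* and *Slc40a1* can change in translation through it without a change in level. In *Tfrc* it acts on decay of the mRNA, and so on its level. A search of GENCODE M21 transcripts (GRCm38) for a bulged C, 5 paired bases and the loop CAGTGN found 1 each in the 5′ UTR of *Fth1*, *Ftl1* and *Slc40a1* and 4 in the 3′ UTR of *Tfrc*. Each is given with 28 bases (2 of the 4 for *Tfrc*), the bulged C and the loop in capitals.
*Fth1* 5′ UTR, chr19:9982733-9982760, plus strand: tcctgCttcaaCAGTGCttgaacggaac
*Ftl1* 5′ UTR, chr7:45459779-45459806, minus strand: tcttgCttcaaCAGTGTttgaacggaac
*Slc40a1* 5′ UTR, chr1:45925465-45925492, minus strand: aacttCagctaCAGTGTtagctaagttt
*Tfrc* 3′ UTR, chr16:32631220-32631247, plus strand: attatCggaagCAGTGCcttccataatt
*Tfrc* 3′ UTR, chr16:32631711-32631738, plus strand: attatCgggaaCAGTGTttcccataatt
The same search matched 31 of 20899 genes (0.148%) in the 5′ UTR and 129 of 21028 (0.613%) in the 3′ UTR. RNA-seq reads the amount of these mRNAs and not their translation, so protein levels of ferritin and ferroportin cannot be read from the values below.

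*Tfrc* (gene ID 22042, chromosome 16, 32608896 to 32632794, plus strand), the receptor that brings transferrin-bound iron into cells, was the member called in adipose tissue. Adipose samples read 13.9, 11.5, 24.4 and 25.3 at 5 months and 25.3, 34.4, 41.6, 50.6 and 30.98 at 20 months. All 5 older samples were above all 4 younger ones, by as little as 25.349 against 25.321 at the boundary. The mean rose from 18.8 ± 7.08 to 36.6 ± 9.81, a log2 change of 0.96 ± 0.27 (limma adjusted p = 0.0378). X5F4299 and X5F5001 were the lowest at 5 months, and with X5F5238 and X5F5239 alone the change was 0.50 (adjusted p = 0.3). The call was also lost in 6 of the 9 fits that left out 1 sample (X5F4299 or X5F5001 at 5 months, or 37, 38, 39 or 40 at 20 months), with adjusted p up to 0.104. In liver *Tfrc* ranged over 17.7 to 31.8 and 10.9 to 27.9 (log2 change -0.38 ± 0.25, adjusted p = 0.291), and in muscle over 28.4 to 68.4 and 29.8 to 58.5 (0.11 ± 0.27, adjusted p = 0.797). Neither of these passed the test.

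*Trf* (gene ID 22041, chromosome 9, 103208876 to 103230286, minus strand), transferrin, is the iron carrier of plasma and is made chiefly by liver. Livers read 15226, 13176, 12294 and 12161 at 5 months and 14237, 19364, 25548, 17723 and 22616 at 20 months. Of the older livers 4 were above all younger ones, and sample 16 lay among them. The log2 change of 0.57 ± 0.33 did not pass the test (adjusted p = 0.23). In 3 of 13 alternative fits liver *Trf* was called higher (adjusted p from 0.00433). These were quantile normalization, no variance trend and DESeq2. In adipose tissue (log2 change -0.36) and muscle (-0.53) the ages overlapped, with adjusted p of 0.259 and 0.13. The annotated transcript *Gm20425* overlaps *Trf*, and 59.4% of the 50-base words of *Trf* transcripts are shared with other genes.

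The ferritin genes *Ftl1* (light chain, gene ID 14325, chromosome 7, 45457944 to 45459886, minus strand) and *Fth1* (heavy chain, gene ID 14319, chromosome 19, 9980600 to 9985111, plus strand) encode the 2 subunits of the iron storage shell. In adipose tissue both ranged widely at 20 months. *Ftl1* read 1664, 1287, 1777 and 1635 at 5 months and 1906, 3501, 7761, 4156 and 2063 at 20 months. Its ages did not overlap, yet the older samples spanned a range of 1906 to 7761, and the log2 change of 1.10 ± 0.41 did not pass the test (adjusted p = 0.0823). *Fth1* read 1307, 1048, 1724 and 1422 at 5 months and 1692, 2494, 5967, 3176 and 1651 at 20 months, with a change of 0.97 ± 0.39 (adjusted p = 0.0979). The same 3 older samples, 37, 38 and 39, had the highest values of both chains.

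The summed markers of macrophages, which store iron and express ferritin, were also highest in those 3 samples. The summed value of 13 macrophage markers in adipose tissue was 909, 681, 1472 and 829.9 at 5 months and 895, 3143, 4912, 2502 and 1341 at 20 months, in the order of the samples above. *Lyz2* was the largest part of this sum, with means of 565 at 5 months and 1725 at 20 months. Sample 38 was the highest for *Ftl1*, *Fth1*, *Hmox1* and the summed markers. Of 12 macrophage markers tested, 1 was called higher with age, *Adgre1* (1.58, adjusted p = 0.0397). *Cd14* (-0.64), *Spic* (-0.13) and *Timd4* (-0.02) had changes below 0, and the rest had changes above 0, all without a call. The part of macrophages in the ferritin values was not tested. In the fit over all 27 samples, with sample weights and by DESeq2 on the recovered reads, both ferritins were called higher, and *Ftl1* also by edgeR and without sample 36 (adjusted p from 0.00289 for *Ftl1* and from 0.00424 for *Fth1*).

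**Figure D3:**
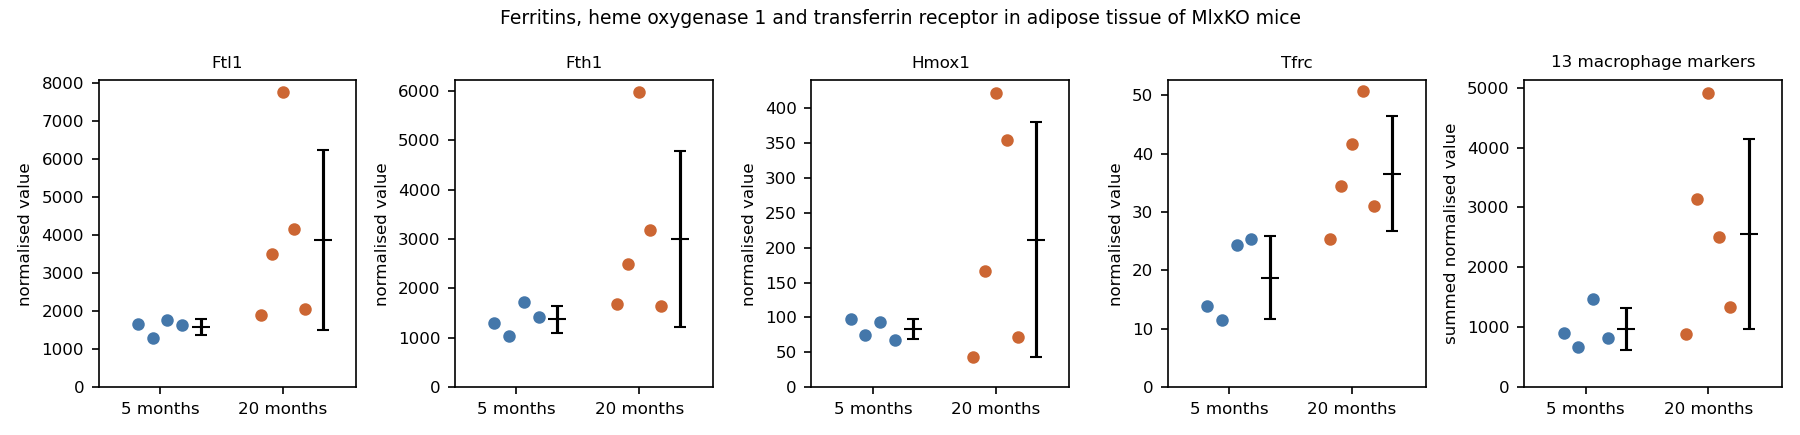
Normalised values (y axes, from 0) of *Ftl1*, *Fth1*, *Hmox1* and *Tfrc* and the summed value of 13 macrophage markers in each adipose sample at 5 and 20 months, with the mean and SD beside the points. The older samples run from left to right as 36 to 40, and sample 38 is the highest for *Ftl1* (7761), *Fth1* (5967), *Hmox1* (421) and the markers (4912).

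In muscle the light chain fell. *Ftl1* read 289, 257, 320.5 and 272 at 5 months and 218, 211, 187, 238 and 195 at 20 months. The ages did not overlap, and the log2 change was -0.44 ± 0.10 (limma adjusted p = 0.0135). The heavy chain, *Fth1*, ranged over 1062 to 1459.7 at 5 months and 1372 to 1571 at 20 months, with a change of 0.24 ± 0.11 that did not pass the test (adjusted p = 0.117). The call of *Ftl1* was lost in the fit over all 27 samples (adjusted p = 0.28). The change of *Fth1* passed without X5S5238 (0.33, adjusted p = 0.0213). In liver, *Ftl1* was 5921 ± 516 at 5 months and 6050.2 ± 1117 at 20 months (adjusted p = 0.974). Liver *Fth1* read 1672, 1828, 1590.3 and 1502 at 5 months and 2107, 2134, 2470.3, 1993 and 1978 at 20 months. Its ages did not overlap, but the change of 0.37 ± 0.15 did not pass the test (adjusted p = 0.0917); without sample 74 its adjusted p was 0.0458. For *Ftl1*, 50.9% of the 50-base words of its transcripts are shared with 15 other annotated genes, among them the pseudogene *Ftl1-ps1*, against 1.59% for *Fth1*, and how reads with several matches were assigned is not given in the sources used here.

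Of 6 genes tested around storage and the iron regulatory proteins, 2 were called lower in liver: *Ncoa4* (-0.89, adjusted p = 0.0168), the receptor that delivers ferritin to lysosomes, and *Ireb2* (-0.47, adjusted p = 0.0315), an iron regulatory protein. *Ncoa4* was 369 ± 144 at 5 months and 189 ± 17.4 at 20 months without overlap. The call of *Ireb2* was lost in 7 of the 9 fits that left out a sample (adjusted p up to 0.0875), and that of *Ncoa4* in 0 of 9. In adipose tissue *Pcbp2* (-0.35, adjusted p = 0.0445), an iron chaperone, was lower and *Ncoa4* was at -0.36 without a call (adjusted p = 0.0903). In muscle *Fbxl5* (0.29, adjusted p = 0.0432), the iron sensor that removes iron regulatory protein, was higher, and *Ncoa4* was at 0.15 (adjusted p = 0.279).

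*Slc40a1* (gene ID 53945, chromosome 1, 45908070 to 45926532, minus strand), ferroportin, the target of hepcidin, did not pass the test for age in any tissue. Livers ranged over 119.6 to 252 at 5 months and 154 to 212 at 20 months. Adipose samples ranged over 30.1 to 46.6 and 29.1 to 60.6, and muscles over 60.97 to 109.7 and 65.2 to 93.1. The log2 changes were 0.11 ± 0.19 in liver, 0.15 ± 0.24 in adipose tissue and 0.04 ± 0.17 in muscle, with adjusted p of 0.706, 0.647 and 0.874.

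Among the other genes of iron and heme transport, adipose tissue had the most calls, with 3 higher and 6 lower of 18 tested, against 1 of 17 in liver and 5 of 16 in muscle. The ferrireductase genes split in adipose tissue: *Steap3* (0.96, adjusted p = 0.0239) and *Steap4* (0.56, adjusted p = 0.0478) were higher and *Steap2* (-1.74, adjusted p = 0.0123) was lower. The heme transporter *Slc48a1* (1.09, adjusted p = 0.0364) was higher. The ferroxidase *Cp* (-0.98, adjusted p = 0.0231), the hemoglobin scavenger receptor *Cd163* (-1.79, adjusted p = 0.0459) and the importer *Slc39a14* (-0.78, adjusted p = 0.0357) were lower. *Slc39a14* and *Cd163* lost their calls in 6 and 7 of 9 fits without 1 sample, *Slc48a1* and *Steap4* in 6, *Steap3* in 4 and *Cp* in 3, while *Steap2* kept its call in each. Markers of other cells moved in the same samples: 3 of 7 tested endothelial markers (median log2 change -0.73) and 3 of 6 mesothelial ones (median -0.89) were called lower, and 1 of 12 macrophage markers was called higher (median 0.66). Their part in these calls was not tested. In liver the called gene was *Steap4* (1.28, adjusted p = 0.0429).

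In muscle the 5 called transport genes were all lower. *Slc39a14*, an importer of iron outside transferrin, fell from 121 ± 105 to 18.02 ± 5.59, a log2 change of -2.38 ± 0.41 (adjusted p = 0.00465). It was lower in all 5 older muscles than in any younger one, and with X5S5238 and X5S5239 alone at 5 months the change was -1.54 (adjusted p = 0.00267). *Cd163* (-1.35, adjusted p = 0.0118), *Cp* (-0.63, adjusted p = 0.0314), *Lrp1* (-0.86, adjusted p = 0.00886), a receptor for heme bound to hemopexin, and *Slc11a1* (-0.90, adjusted p = 0.0108), an iron transporter of phagocytes, were lower too, and *Cp* lost its call in 5 of 9 fits without 1 sample. With the same pair alone, *Cp* was at -0.37 (adjusted p = 0.227) and *Cd163* at -1.01 (adjusted p = 0.0505). Macrophage markers moved with them: 4 of 6 tested were called lower, and the sum of 13 was 115 to 191 at 5 months and 67.3 to 127 at 20 months. Not called in any tissue were the importer *Slc11a2* (log2 changes 0.04 in liver, 0.18 in adipose tissue and -0.21 in muscle) and haptoglobin, *Hp* (0.16, 1.02 and -0.66). Hemopexin, *Hpx*, which carries free heme, was at 0.79 in liver (adjusted p = 0.139).

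*Alas1* (gene ID 11655, chromosome 9, 106233455 to 106247954, minus strand), the first enzyme of heme synthesis, had its highest level in liver. Livers read 598, 709, 357 and 473 at 5 months and 332, 341, 240.3, 564 and 217 at 20 months. Of the older livers 4 were below all younger ones, and sample 19 was above 2 of them. The mean was 534 ± 152 at 5 months and 339 ± 137 at 20 months, and the log2 change of -0.69 ± 0.28 did not pass the test (adjusted p = 0.0959). In the fit without sample 19 it did, at -0.90 (adjusted p = 0.0369). The changes in adipose tissue (0.22 ± 0.26, adjusted p = 0.549) and muscle (-0.19 ± 0.12, adjusted p = 0.272) did not pass either.

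Of 20 genes of heme synthesis and mitochondrial iron tested in liver, 4 were called higher and 1 lower, with a median log2 change of 0.13. The share called was 25%, against 19.8% of all genes tested in liver. *Alad* (0.57, adjusted p = 0.0392) and *Ppox* (0.58, adjusted p = 0.0179), which act at later steps of the pathway, the iron-sulfur scaffold *Iscu* (0.46, adjusted p = 0.0414) and the erythroid isoform *Alas2* (0.72, adjusted p = 0.0368) were higher. *Clpx*, an unfoldase that acts on ALAS, was lower at -0.62 (adjusted p = 0.0468). *Alas2* moved with red cell markers: 4 of 5 tested erythroid markers were called higher, *Alas2* among them, and their sum was 664 to 842 at 5 months and 953 to 1257 at 20 months. The call of *Alas2* was lost in 7 and that of *Clpx* in 8 of the 9 fits without 1 sample (adjusted p up to 0.0922 and 0.106). In adipose tissue *Cpox* (0.46, adjusted p = 0.0354) and *Tmem14c* (0.72, adjusted p = 0.0358) were among the genes called higher and *Clpx* (-0.41, adjusted p = 0.0352) was lower. In muscle *Cpox* (0.44, adjusted p = 0.017) and *Fech* (0.28, adjusted p = 0.0265), the enzyme that inserts iron, were higher, and *Alas2* (-1.23, adjusted p = 0.0351) was lower, as were 3 of 6 erythroid markers, itself among them. The call in muscle was lost in 7 of 9 fits without 1 sample, and that of *Tmem14c* in adipose tissue in 6.

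Regulators of *Alas1* gave 1 call of 7 in liver, the clock output gene *Dbp* (2.81, adjusted p = 0.0332), with a mean of 1.89 ± 0.291 at 5 months and 36.7 ± 39.2 at 20 months. The heme-binding clock repressor *Nr1d1* (1.85, adjusted p = 0.00969) rose from 27.8 ± 18.1 to 94.1 ± 31.4 in the same livers. In muscle its relative *Nr1d2* (0.64, adjusted p = 0.0033) was higher, and the clock activator *Arntl* (-1.10, adjusted p = 0.011) and *Foxo1* (-1.67, adjusted p = 0.00394) were lower. In adipose tissue *Arntl* (-0.76, adjusted p = 0.0379) was lower. These transcripts vary over the day, and the hour of tissue collection is not given in the sources used here. *Dbp* lost its call in 6 of 9 fits without 1 liver sample, and *Nr1d1* in 0 of 9.

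*Hmox1* (gene ID 15368, chromosome 8, 75093618 to 75100593, plus strand), which opens the heme ring and is induced by heme and oxidative stress, fell in muscle. Muscles read 91.4, 104, 19.3 and 17.7 at 5 months and 10.4, 12.9, 8.97, 11.02 and 8.62 at 20 months. The younger muscles fell into a high pair, X5S4299 and X5S5001, and a low pair, and the lowest younger muscle (17.7) was still above the highest older one (12.9). The log2 change was -1.96 ± 0.47 (limma adjusted p = 0.0174; exact two-sided permutation p = 0.00794, the smallest possible). With the high pair left out, a choice made after these values were seen, it was -0.79 (adjusted p = 0.0125). Leaving out any single sample kept the call, at -2.37 to -1.54.

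Of 7 tested NRF2 targets, 4 were called lower with age and 1 higher: *Srxn1* (-1.86, adjusted p = 0.0092), *Gclm* (-0.78, adjusted p = 0.0108), *Gclc* (-0.52, adjusted p = 0.0229) and *Gstm1* (-0.34, adjusted p = 0.0309) fell, while *Nqo1* (0.44, adjusted p = 0.0101) rose. The small Maf genes *Maff* (-1.50, adjusted p = 0.014) and *Mafk* (-1.02, adjusted p = 0.0106), partners of NRF2 and of its heme-sensing competitor BACH1, fell too. The metallothionein gene *Mt1*, chosen after the *Hmox1* values were seen, read 350.1, 1382, 190.3 and 84.9 at 5 months and 12.5 to 32.1 at 20 months, with no overlap. The heat shock gene *Hspa1a*, chosen in the same way, read 120.2, 4176, 168 and 1085 at 5 months and 18.4 to 57.96 at 20 months. X5S5001 was the highest for *Hmox1*, *Mt1* and *Hspa1a*. X5S4299, the other muscle with high *Hmox1*, was next for *Mt1* (350.1) but the lowest of its age for *Hspa1a* (120.2). X5S5239, the lowest of its age for *Hmox1*, read 1085 for *Hspa1a*.

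**Figure D4:**
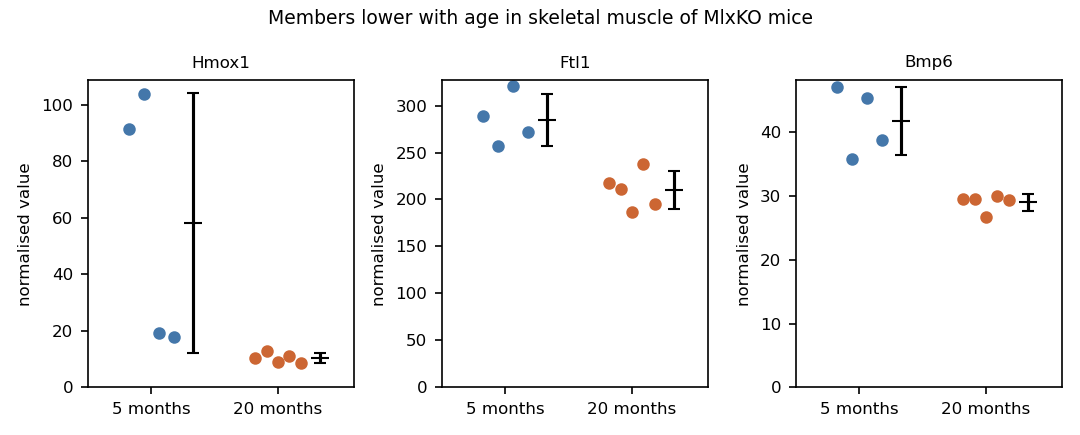
Normalised values (y axes, from 0) of *Hmox1*, *Ftl1* and *Bmp6* in each muscle at 5 and 20 months, with the mean and SD beside the points. For all 3 genes the 5 older muscles lie below the 4 younger ones, and the 2 leftmost younger muscles (X5S4299 and X5S5001) stand apart for *Hmox1* at 91.4 and 104.

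In adipose tissue *Hmox1* was spread widely at 20 months. Younger samples read 97.5, 75.2, 93.4 and 67.1 and older ones 43.9, 166, 421, 353 and 72.6. Sample 36 was below and samples 37, 38 and 39 were above all younger ones, and the change of 0.87 ± 0.61 did not pass the test (adjusted p = 0.299). The 3 high samples are those with the high ferritins and the high sum of macrophage markers. In liver *Hmox1* ranged over 21.5 to 46.1 at 5 months and 28.7 to 66.7 at 20 months (log2 change 0.52 ± 0.27, adjusted p = 0.186, or 0.0485 without sample 16). The constitutive isoform *Hmox2* and the next enzyme of the pathway, *Blvrb*, were not called in any tissue; the change of *Blvrb* was 0.63 in liver and 1.01 in adipose tissue, with adjusted p of 0.054 and 0.0933. In adipose tissue *Maff* (-1.29, adjusted p = 0.0184) was lower, and 0 of 8 NRF2 targets were called by limma.

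Age changes were then compared between tissues, in 1 fit over the 27 samples. Between liver and adipose tissue 4 of 10 members differed (15.6% of all genes), between liver and muscle 2 (17.5%) and between adipose tissue and muscle 2 (14.7%). The change of *Tfrc* was lower in liver than in adipose tissue (-1.34 ± 0.41, adjusted p = 0.0295), as was that of *Ftl1* (-1.09 ± 0.37, adjusted p = 0.0451). The changes of *Trf* (0.93 ± 0.32, adjusted p = 0.0466) and *Id1* (1.46 ± 0.47, adjusted p = 0.0341) were higher in liver. Against muscle, liver had the higher change of *Trf* (1.09 ± 0.32, adjusted p = 0.0191) and of *Hmox1* (2.48 ± 0.75, adjusted p = 0.0236). Adipose tissue had higher changes than muscle of *Ftl1* (1.54 ± 0.37, adjusted p = 0.00747) and *Hmox1* (2.83 ± 0.75, adjusted p = 0.0138). For *Hamp*, 2 of the 3 tissues are near 0, and its differences did not pass (adjusted p = 0.0721 against adipose tissue). The difference in the change of *Bmp6* between liver and muscle did not pass the test (log2 -0.27 ± 0.33, adjusted p = 0.626), the 2 tissues in which it was called. By edgeR on the recovered reads 0 members differed between liver and adipose tissue, and without the filter on low values 0 did by limma. Leaving out 1 of the 27 samples at a time removed the difference between liver and adipose tissue for *Ftl1* in 21 fits (adjusted p up to 0.0953), for *Trf* in 19 fits (adjusted p up to 0.0859), for *Id1* in 8 fits (adjusted p up to 0.0849) and for *Tfrc* in 6 fits (adjusted p up to 0.0762). That of *Hmox1* between liver and muscle was lost in 3 fits (adjusted p up to 0.0675), and the other 3 differences were kept in all 27.

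Levels of the members were then compared between tissues at each age. At 5 months, 8 of 10 members differed between liver and adipose tissue (76.4% of all genes), 7 between liver and muscle (72.9%) and 6 between adipose tissue and muscle (72.8%), and at 20 months 8 (74.5%), 10 (77.2%) and 6 (76%). *Hamp* was a liver transcript, with a mean of 1601 at 5 months. *Trf* ran from 19897 ± 4369 in older liver through 1536 ± 241 in younger adipose tissue to 36.8 ± 12.1 in older muscle, and each step between tissues passed the test while the ages within a tissue did not. *Alas1* and *Slc40a1* were also highest in liver, followed by adipose tissue for *Alas1* and by muscle for *Slc40a1*. The difference of *Alas1* between adipose tissue and muscle did not pass the test (adjusted p = 0.917 at 5 months and 0.0945 at 20 months), and all steps of *Slc40a1* between tissues passed. With samples rescaled without the 20 most abundant genes, *Slc40a1* no longer differed by the test between adipose tissue and muscle (-0.24, adjusted p = 0.366 at 5 months, and -0.27, adjusted p = 0.256 at 20 months). Under that rescaling *Alas1* did not pass between liver and adipose tissue at 20 months either (adjusted p = 0.331).

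By its means *Ftl1* followed the order liver, adipose tissue, muscle. Liver was above adipose tissue by 1.90 ± 0.27, adjusted p = 7.6e-07 at 5 months and 0.82 ± 0.24, adjusted p = 0.00411 at 20 months. Under quantile normalization this order turned, to -0.55 (adjusted p = 0.172) at 5 months and -1.28 (adjusted p = 0.000974) at 20 months. With samples rescaled without the 20 most abundant genes, the 2 tissues did not differ by the test at 20 months (adjusted p = 0.807). *Fth1* had means from 1227 in younger muscle to 2996 in older adipose tissue, and no neighbours in the order of the 6 groups passed the test, while at 20 months both liver (0.56 ± 0.23, adjusted p = 0.0285) and adipose tissue (0.88 ± 0.23, adjusted p = 0.00117) were above muscle. *Tfrc* had its highest means in muscle (46.1 ± 13.9 at 20 months) and *Bmp6* in younger muscle (41.7 ± 5.37), with the lowest *Bmp6* in older liver. At 20 months neither *Tfrc* (adjusted p = 0.315) nor *Bmp6* (adjusted p = 0.157) differed by the test between adipose tissue and muscle. At 5 months *Tfrc* did (-1.16 ± 0.31, adjusted p = 0.00162), but not with samples rescaled without the 20 most abundant genes (adjusted p = 0.136). *Bmp6* differed between adipose tissue and muscle at 5 months (-0.57 ± 0.25, adjusted p = 0.0399), but turned to 0.13 when samples were rescaled without the 20 most abundant genes. *Id1* was highest in younger adipose tissue (55.6 ± 13.9) and *Hmox1* in older adipose tissue (211 ± 168), and no neighbours in the order passed for *Id1*. The lowest group for *Hmox1* was older muscle (10.4 ± 1.72), below younger liver with an adjusted p of 0.0086.

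**Figure D5:**
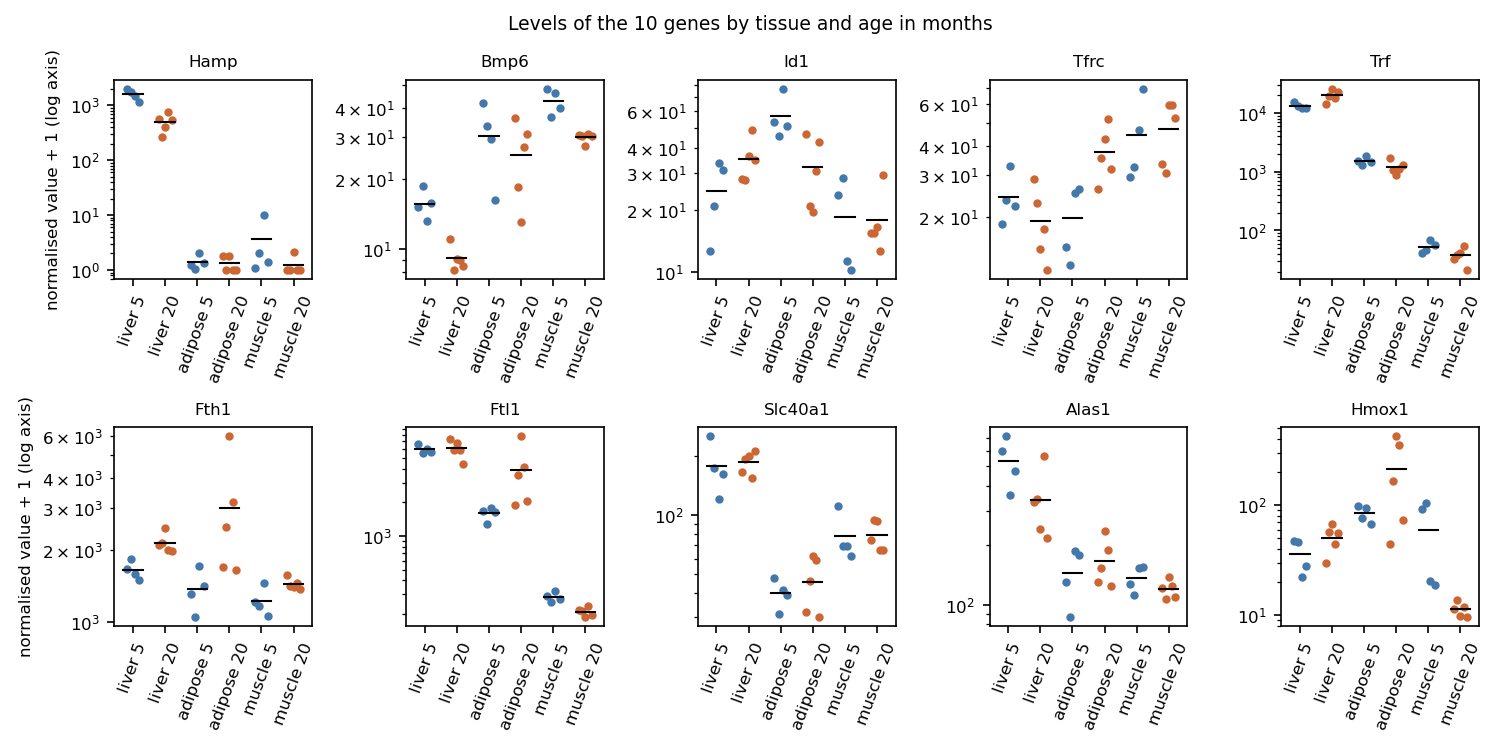
Normalised value + 1 (y axis, log scale) of the 10 members in each sample, by tissue and age in months; bars mark group means. Before 1 was added, the value of *Hamp* is above 260 in each liver and below 10 elsewhere, and that of *Fth1* is within 1048 to 5967 in all 27 samples.

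Values were also divided by the kilobases of annotated exon of each gene. Younger liver then held *Ftl1* at 4419, *Trf* at 3980.0 and *Hamp* at 3904, against 475 for *Fth1*, 86.5 for *Alas1* and 3.76 for *Bmp6*. On this scale the light chain of ferritin stood above the heavy chain in liver and in adipose tissue (1187 against 396 at 5 months). In muscle it stood below (212 against 354). Without division by length, the means in younger adipose tissue were closer, 1591 for *Ftl1* and 1375 for *Fth1*. In older muscle the light chain was at 156 and the heavy chain at 416. These levels are descriptions, since exon lengths join all annotated transcripts of a gene. That length was 3469 bases for *Fth1* and 1340 for *Ftl1*, so the gap between the 2 chains depends on the annotation.

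As a description over the 27 samples, the genes whose log2(value + 1) ran most like each member's were taken by Pearson's r. *Hamp* was closest to *Tat* and *Cyp8b1* (0.995 and 0.994), *Trf* to *Apoe* and *Vnn3* (both 0.994) and *Ftl1* to *Pgam1* (0.988) and *Casp9* (0.988). *Bmp6* was closest to *Flt1*, a receptor of endothelial cells (0.945), and *Helz* (0.927), *Slc40a1* to *Tmem150a* (0.940) and *Tex261* (0.939), and *Alas1* to *Gabbr2* (0.932) and *Hsd17b4* (0.916). *Fth1* was closest to *Grb2* (0.931) and *Guca1a* (0.897), and *Hmox1* to *Fnip2* (0.917) and *Lilrb4a* (0.902). The lowest of these values were those of *Tfrc* with *Polr2g* (0.849) and *Napg* (0.826) and of *Id1* with *Slc16a13* (0.8292) and *Tomm6os* (0.809). Samples of 1 tissue share most of these levels, so the values carry no test.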

How the data were processed

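RNA-seq libraries from poly(A) RNA of 27 samples were made with a directional kit. According to the methods, CLC Genomics Workbench was used for mapping and counting, and the submitters' processing notes name the builds GRCm38.p6 and mm10 with no annotation. The deposited values are a signal made by the authors from read counts: CPM rescaled by an unnamed factor per sample, so that columns sum to 559419 to 1395315. The plan had assumed CPM, and its tests on log2(value + 1) were kept. In each sample 100% of values were whole multiples of 1 read (tolerance 0.05 reads), which gave 14384695 to 25673919 reads on genes. Of 48 replicate pairs, 0 held identical values and chi-square per degree of freedom was 9.81 or more. Strand use in counting is not stated, so genes that overlap on opposite strands cannot be told apart. The 10 members, 8 pathway lists (107 genes found) and 8 marker lists were chosen with earlier results of these data known.

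Ages were compared within each tissue by limma 3.58.1 (R 4.3.3) with a variance trend, over genes reaching a value of 1 in 4 or more samples (12654 in liver, 14005 in adipose tissue and 12720 in muscle). Differences of age changes and of tissues came from 1 fit over 27 samples (15572 genes). The study's list of mice pairs the tissues at 5 months by mouse. Over the 4 mice and 3 pairs of tissues, deviations of paired samples from their group means had 12 correlations of -0.017 to 0.29, of which 7 were over 0.1, and the mouse as a block was an alternative fit. Adjustment was by Benjamini-Hochberg with a threshold of 0.05. The alternatives were pseudocounts of 0.1 and 0.5, other filters and scalings, no trend, weighting of samples, count models on the whole reads (DESeq2 1.42.0, and edgeR 4.0.16 by quasi-likelihood), each sample left out, and, chosen after the values were seen, X5L5238 and X5L5239 (and their namesakes) alone at 5 months. Named beside the members were, in each tissue, the called list genes with the 5 largest increases and the 5 largest decreases, 22 genes whose role is next to a member, and the 2 genes most correlated with each member; a few further called genes were named after their values were seen. The fits were tested on simulated reads. Coordinates are from RefSeq and GENCODE M21 annotation of GRCm38.p6; 10 of 10 members matched by gene ID.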

Additional observations from a re-analysis of the deposited data

Results flagged for a closer look

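Among 60 groups of 4 or 5 samples, 1 per member, tissue and age, 5 held a sample set far from the others by Dixon's criterion, which flags about 1 in 20 groups by chance. For *Hamp* in muscle, X5S5238 at 5 months read 9.24 against 0.0768 to 1.05 in the others, and sample 58 at 20 months read 1.085 against 0 in each of the others. These were also the muscles with the highest hepatocyte markers of their age (413 and 76.7). *Slc40a1* read 109.7 in muscle sample X5S4299 at 5 months against 61.0 to 68.3 in the others. *Bmp6* read 26.6 in muscle sample 58 at 20 months against 29.4 to 29.9, a narrow group. *Id1* read 28.4 in muscle sample 60 at 20 months against 11.6 to 15.6.

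The age change of a member differed between tissues by limma in 8 cases, given as log2 differences of the changes. For liver against adipose tissue they were -1.34 for *Tfrc*, 0.93 for *Trf*, -1.09 for *Ftl1* and 1.46 for *Id1*. For liver against muscle they were 1.09 for *Trf* and 2.48 for *Hmox1*, and for adipose tissue against muscle 1.54 for *Ftl1* and 2.83 for *Hmox1*.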

How the results depend on the processing

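With X5L5238 and X5L5239, or their namesakes in the other tissues, alone at 5 months, chosen after the values were seen, 0 members were called in liver and 0 in adipose tissue (3 in muscle), and of the other iron and heme genes 0, 0 and 12; fewer samples leave fewer calls over all genes too (93, 14 and 1126). Members called in liver numbered 4 under quantile normalization, without variance trend, with sample weights and by DESeq2. In adipose tissue they numbered 4 in the fit over all samples, 0 without filter, 6 with weights, 2 by edgeR and 4 by DESeq2, and in muscle 1 in the fit over all samples. The other genes called numbered 11 without filter, 40 with weights and 34 by DESeq2 in liver (21 as reported), and 33 in the fit over all samples, 10 without filter, 57 with weights and 37 by DESeq2 in adipose tissue (19 as reported). Members whose change differed numbered 2 with a pseudocount of 0.1, 0 without filter, 7 with weights and 0 by edgeR for liver against adipose tissue, 1 under quantile normalization and 1 by edgeR for liver against muscle, and 4 with weights for adipose tissue against muscle. Without 1 sample at a time, counts in liver, adipose tissue and muscle were 2 to 3, 0 to 3 and 3 to 4 for members called, for other genes 3 to 32, 4 to 30 and 16 to 37, and differing changes 0 to 5, 1 to 3 and 2 to 2 for the 3 pairs in the order above. The cause was not tested.

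Over all genes, counts of calls moved by over 1.5 times with weights (4454 in liver, 8456 in adipose tissue), without filter (1525 in adipose tissue, 1507 in muscle), by DESeq2 (4348 in adipose tissue) and in the fit over all samples (5270 in adipose tissue). Rescaling without the 20 most abundant genes moved the median of all liver genes by 0.16 and the split of calls to 2203 higher and 477 lower (1269 and 1239 as reported), and in muscle to 1732 and 989 (1161 and 1290).

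Log2 values that turned in sign, all of them uncalled as reported but for those between tissues, were the following. With median-of-ratios factors these were *Ftl1* in liver (-0.000873). Under quantile normalization these were *Hfe* in liver (0.0156), *Tfr2* in liver (0.0835), *Ftl1* for liver against adipose tissue at 5 months (-0.55) and *Ftl1* for liver against adipose tissue at 20 months (-1.28). Under that rescaling these were *Hfe* in liver (0.11), *Tfr2* in liver (0.11), *Id2* in liver (0.0753) and *Bmp6* for adipose tissue against muscle at 5 months (0.13). With weights these were *Tfr2* in liver (0.11), *Atoh8* in liver (0.0379), *Slc40a1* in adipose tissue (-0.0122) and *Tfrc* in muscle (-0.0129). With that pair alone at 5 months these were *Atoh8* in liver (0.0339), *Id2* in liver (0.019), *Id3* in liver (-0.10), *Bmp6* in adipose tissue (0.11), *Alas1* in adipose tissue (-0.17) and *Tfrc* in muscle (-0.33). By edgeR these were *Id1* in muscle (-0.0462). By DESeq2 these were *Id1* in muscle (-0.0677). Leaving out 1 sample gave -0.0617 to 0.12 for *Ftl1* in liver, -0.0617 to 0.29 for *Slc40a1* in liver, -0.18 to 0.15 for *Tfr2* in liver, -0.0115 to 0.36 for *Alas1* in adipose tissue, -0.0626 to 0.35 for *Tfrc* in muscle, -0.0519 to 0.23 for *Slc40a1* in muscle and -0.20 to 0.29 for *Id1* in muscle. No other result recomputed under the alternatives changed direction; called genes named after their values were seen were not recomputed. With the mouse as a replicate block at 5 months the counts of members whose change differed stayed 4, 2 and 2, and no call of a member between tissues changed.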
